A study of Danio rerio with 13 samples.

Results

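Radial glia are the astroglia of the adult zebrafish brain: their cell bodies line the ventricles, long processes cross the tissue, and many of them serve as neural stem cells throughout life. They carry out tasks that astrocytes perform in mammals, such as clearing glutamate from synapses, and they can re-enter the cell cycle and produce neurons. The genes described here are those whose name was one of the 10 names commonly used to mark these cells (gfap, fabp7a, s100b, glula, slc1a2b, slc1a3b, sox2, nes, vim and her6), where a name that lacked only its final paralogue letter also counted. The rule used names and no measured value, but the names were chosen with earlier results of these data known. Of the 10 names, 9 were found, on 14 of the 32105 genes in the table, and these 14 genes took 0.520% of all counts. Zebrafish keep duplicate copies of many genes, and 5 of the names were carried by 2 genes each. The names do not tell such copies apart, so each is given with its Ensembl identifier. No gene was named her6, but many genes carry human-style names, so her6 could stand under another name.

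Expression was measured by RNA sequencing of whole brain RNA from 13 male zebrafish of the AB strain, all 3 months old, with 1 library for each fish. There were 3 homozygous mutants of tert (tert-/-), 5 heterozygous mutants (tert+/-) and 5 wild-type fish. tert encodes the protein subunit of telomerase, the enzyme that keeps chromosome ends long, and the mutant line carries the germline allele tert hu3430 in all its cells. The study used the line as a model of ageing and compared each mutant genotype with wild type. For its metabolite analysis, which was drawn from expression data, it also set tert-/- against tert+/-.

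Library totals ran between 25429047 and 32380953 counts in tert-/-, between 23215636 and 26219091 in tert+/-, and between 22008289 and 29347329 in wild type. As background, this allele is a point change to a premature stop codon, so the level of tert does not check the genotypes. It was 10.4, 3.96 and 9.71 CPM (read counts scaled to a common library size, with TMM factors) in the tert-/- brains, 8.80, 5.04, 5.10, 3.61 and 5.92 CPM in the tert+/- brains, and 3.88, 2.24, 1.98, 2.09 and 2.54 CPM in the wild-type brains. Summed over a list of 27 photoreceptor genes, wild type 5 had 769 CPM, tert+/- 3 had 357 CPM and wild type 1 had 59.4 CPM, against 12.9 to 22.7 CPM in the other libraries. Summed over 20 hindbrain and spinal cord genes, tert-/- 1, tert-/- 2, tert+/- 4 and wild type 5 had between 1.19 and 2.76 CPM, against 19.1 to 119 CPM in the other libraries. In whole-tissue RNA, fewer cells of a type and less RNA in each cell cannot be told apart.

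Of the 14 genes, 13 passed the filter on low counts, with at least 27 counts in every library, so that the markers of these cells were present in all 13 brains. The second SLC1A2 gene (ENSDARG00000052138) was the exception. It had 34 counts in all, of which 23 were in wild type 5, and it did not pass. Compared per length of gene, the 13 others spanned a wide range, as the plot of levels per length shows. FABP7 (ENSDARG00000007697), a fatty acid binding protein of neural stem cells, had the highest mean at 990 ± 110 CPM per kilobase (SD, n = 13). It was followed by GLUL (ENSDARG00000099776), a glutamine synthetase, at 684 ± 94.1 CPM per kilobase. S100B, a calcium binding protein, had 475 ± 86.5 CPM per kilobase, and the main SLC1A2 gene (ENSDARG00000102453), a glutamate transporter, had 362 ± 54.0 CPM per kilobase. The ranges of these neighbours overlapped one another, but the lowest SLC1A2 value stood above the highest value of the gene that came next, GLUL (ENSDARG00000100003), at 78.7 ± 18.4 CPM per kilobase. This second GLUL gene stood above the range of VIM (ENSDARG00000010008), the next by mean, but its range overlapped that of SLC1A3 (ENSDARG00000043148). The next means were those of VIM (ENSDARG00000010008) at 40.1 ± 8.41, SLC1A3 (ENSDARG00000043148) at 39.1 ± 16.6, SOX2 at 28.6 ± 3.51 and GFAP at 25.4 ± 9.75 CPM per kilobase. Lower means were those of VIM (ENSDARG00000044501) at 7.79 ± 1.92, SLC1A3 (ENSDARG00000104431) at 6.37 ± 1.92, FABP7 (ENSDARG00000034650) at 6.12 ± 8.03 and nes at 3.74 ± 0.604 CPM per kilobase. FABP7 (ENSDARG00000034650) reached 31.3 CPM per kilobase in wild type 5, within the ranges of VIM (ENSDARG00000010008), SLC1A3 (ENSDARG00000043148), SOX2 and GFAP. For each of the 5 names with 2 genes, the ranges of the copies did not overlap, and they came closest for the SLC1A3 genes.

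**Figure D1:**
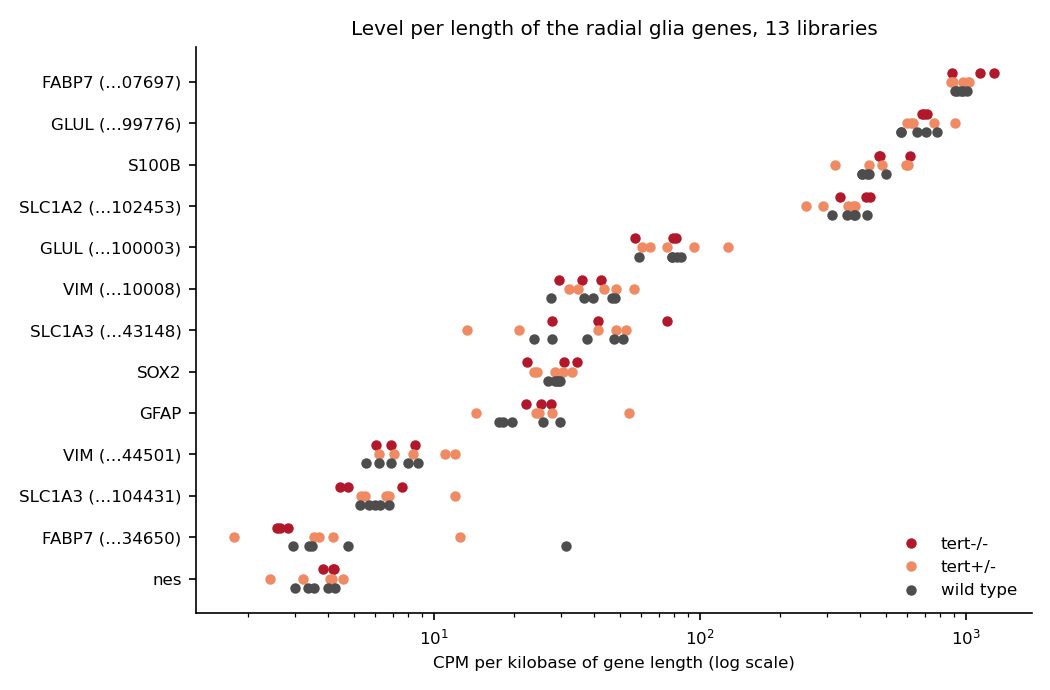
Level per length of the 13 radial glia genes that passed the filter, in CPM per kilobase on a log axis, with 1 point for each of 13 libraries and the genotypes in separate rows (tert-/- above tert+/- above wild type). Identifiers are shortened to their last digits. The 4 genes at the top have ranges clear of all others, and the 3 genotypes overlap for every gene except that the 3 tert-/- points of FABP7 (ENSDARG00000034650) lie below all wild-type points.

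Genotypes were compared with edgeR in 1 fit of all 13 libraries, with p-values adjusted over 20064 genes. No radial glia gene was called at an adjusted p under 0.05 in any of the 3 comparisons, and in none was the unadjusted p of a radial glia gene under 0.05. Over all genes edgeR called 0 genes (0%) in each comparison. Among all genes, the unadjusted p was under 0.05 for 429 (2.14%) in tert-/- against wild type, for 1553 (7.74%) in tert+/- against wild type and for 927 (4.62%) in tert-/- against tert+/-. With DESeq2, 16 of 26989 genes (0.0593%), 30 of 22315 genes (0.134%) and 20 of 22315 genes (0.0896%) were called in the same order, and 0 of them were radial glia genes. DESeq2 gave no adjusted p for FABP7 (ENSDARG00000034650) in either mutant genotype against wild type, so that gene could not be called there. The 3 comparisons share fish, so they are not independent of one another. The p-values set a difference between genotypes against the spread between fish within genotypes, estimated over all 13 libraries. The sources do not say whether fish of 1 genotype were siblings or shared a tank.

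For the 13 genes tested in tert-/- against wild type, 9 had a positive and 4 a negative log2 fold change, with a median of 0.089, against a median of 0.00049 over all genes. In tert+/- against wild type the split was also 9 against 4, with a median of 0.10, against -0.0031 over all genes. In tert-/- against tert+/- it was 6 against 7, with a median of -0.012, against -0.0026 over all genes. Without tert+/- 2 the split in tert+/- against wild type was 5 against 8, with a median of -0.0074, and that in tert-/- against tert+/- was 8 against 5, with a median of 0.12. All 39 intervals of 95% included 0, as the plot of log2 fold changes shows, and their width sets what can be said. For the best measured gene, FABP7 (ENSDARG00000007697), the interval in tert-/- against wild type ran between 0.985-fold and 1.34-fold, whereas for SLC1A3 (ENSDARG00000043148) it ran between 0.669-fold and 2.46-fold.

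**Figure D2:**
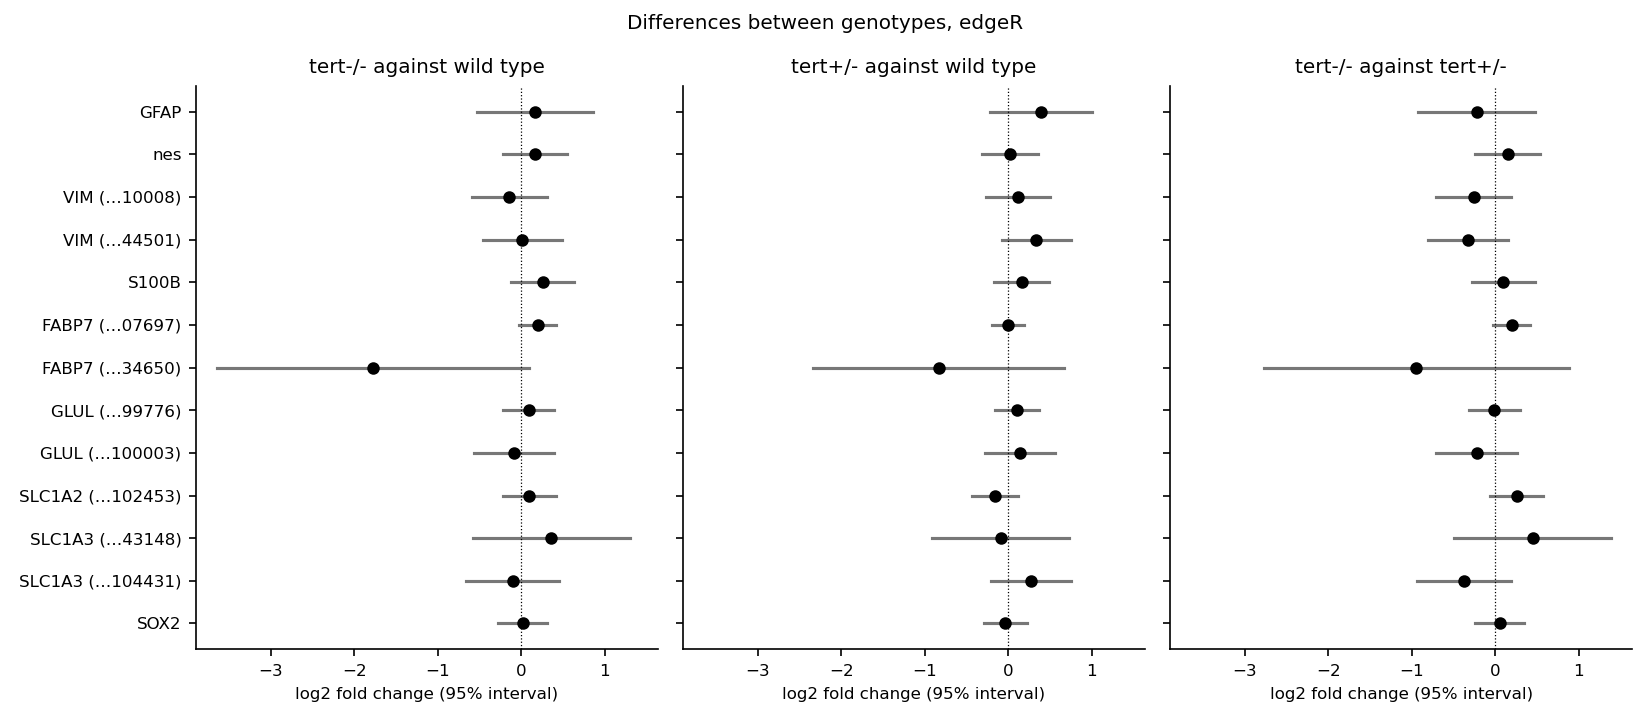
Log2 fold change (points) with its 95% interval (lines) from edgeR for 13 radial glia genes in tert-/- against wild type, tert+/- against wild type and tert-/- against tert+/-. Every interval includes 0, and that of FABP7 (ENSDARG00000034650) is the widest in each comparison.

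The intermediate filament genes come first, since their proteins form the skeleton of radial processes. GFAP, the classical astroglial filament, had 58.6, 66.9 and 72.7 CPM in the tert-/- brains, 38.3, 144, 64.0, 65.9 and 73.5 CPM in the tert+/- brains, and 46.4, 78.9, 68.0, 52.0 and 48.0 CPM in the wild-type brains. The genotypes overlapped, and both the lowest and the highest value were from tert+/- fish. The log2 fold change was 0.17 (SE 0.32, edgeR adjusted p = 1) in tert-/- against wild type, 0.39 (SE 0.28, adjusted p = 0.737) in tert+/- against wild type, and -0.22 (SE 0.33, adjusted p = 0.983) in tert-/- against tert+/-. A single fish, tert+/- 2, stood at 2.21 times the median of the other 12. Without it the difference of tert+/- against wild type was 0.042, and that of tert-/- against tert+/- turned positive, at 0.13.

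VIM (ENSDARG00000010008), a vimentin gene, had 55.1, 67.1 and 78.9 CPM in tert-/-, 59.8, 105, 64.7, 90.0 and 80.8 CPM in tert+/-, and 51.3, 86.5, 74.0, 68.0 and 89.3 CPM in wild type. The second vimentin gene (ENSDARG00000044501) had 11.6, 14.2 and 10.2 CPM in tert-/-, 11.9, 20.2, 18.4, 10.4 and 14.1 CPM in tert+/-, and 10.5, 11.5, 9.36, 13.4 and 14.6 CPM in wild type. Both copies were highest in tert+/- 2, and the genotypes overlapped. The second copy had the lowest p of any radial glia gene in tert+/- against wild type, at a log2 fold change of 0.34 (SE 0.19, edgeR adjusted p = 0.680). This value was 0.21 without tert+/- 2. nes, which encodes nestin, the filament of neural progenitors, had 19.1, 19.2 and 17.6 CPM in tert-/-, 11.1, 18.9, 14.7, 18.6 and 20.8 CPM in tert+/-, and 16.1, 15.4, 19.5, 13.7 and 18.2 CPM in wild type. The tert-/- values lay close together inside the spread of both other genotypes, with a log2 fold change against wild type of 0.17 (95% interval -0.22 to 0.55).

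S100B had 758, 578 and 585 CPM in the tert-/- brains, 731, 743, 532, 397 and 594 CPM in the tert+/- brains, and 534, 501, 501, 616 and 523 CPM in the wild-type brains. The highest value was in tert-/- 1 and the lowest in tert+/- 4, and 4 of the 5 wild-type fish lay below all 3 tert-/- fish, whereas wild type 4 lay above 2 of them. The log2 fold change of tert-/- against wild type was 0.26 (SE 0.17, edgeR adjusted p = 1). It was 0.14 without tert-/- 1.

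The abundant FABP7 gene (ENSDARG00000007697) had 762, 1096 and 969 CPM in the tert-/- brains, 841, 879, 768, 755 and 871 CPM in the tert+/- brains, and 799, 836, 781, 866 and 824 CPM in the wild-type brains. Wild-type fish were close together for this gene (CV 4.03%), and tert-/- fish lay on both sides of them, with tert-/- 1 below every wild-type fish and the other two above. Its log2 fold change was 0.20 (SE 0.10, edgeR adjusted p = 1) in tert-/- against wild type, 0.0031 (SE 0.089, adjusted p = 0.997) in tert+/- against wild type, and 0.20 (SE 0.10, adjusted p = 0.975) in tert-/- against tert+/-. The first of these was 0.35 without tert-/- 1 and 0.083 without tert-/- 2.

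The second FABP7 gene (ENSDARG00000034650) was the only radial glia gene whose libraries did not overlap between genotypes in any comparison. Over all genes, 435 (2.17%) did not overlap in tert-/- against wild type, 341 (1.7%) in tert+/- against wild type and 481 (2.4%) in tert-/- against tert+/-. The gene had 1.77, 1.72 and 1.90 CPM in the tert-/- brains, 2.81, 2.48, 2.37, 1.19 and 8.43 CPM in the tert+/- brains, and 3.19, 2.28, 2.34, 1.99 and 21.1 CPM in the wild-type brains. The 3 tert-/- fish lay below all wild-type fish, but wild type 4 was close to them, and wild type 5 and tert+/- 5 stood at 9.12 and 3.65 times the median of the other fish. The log2 fold change of tert-/- against wild type was -1.78 (SE 0.86, 95% interval -3.64 to 0.092, edgeR adjusted p = 1). Without wild type 5 it was -0.44, and the value of tert+/- against wild type was 0.50 in place of -0.83. The summed CPM of the photoreceptor list was 769 in wild type 5 and 18.2 in tert+/- 5, and its part in these 2 values was not tested.

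**Figure D3:**
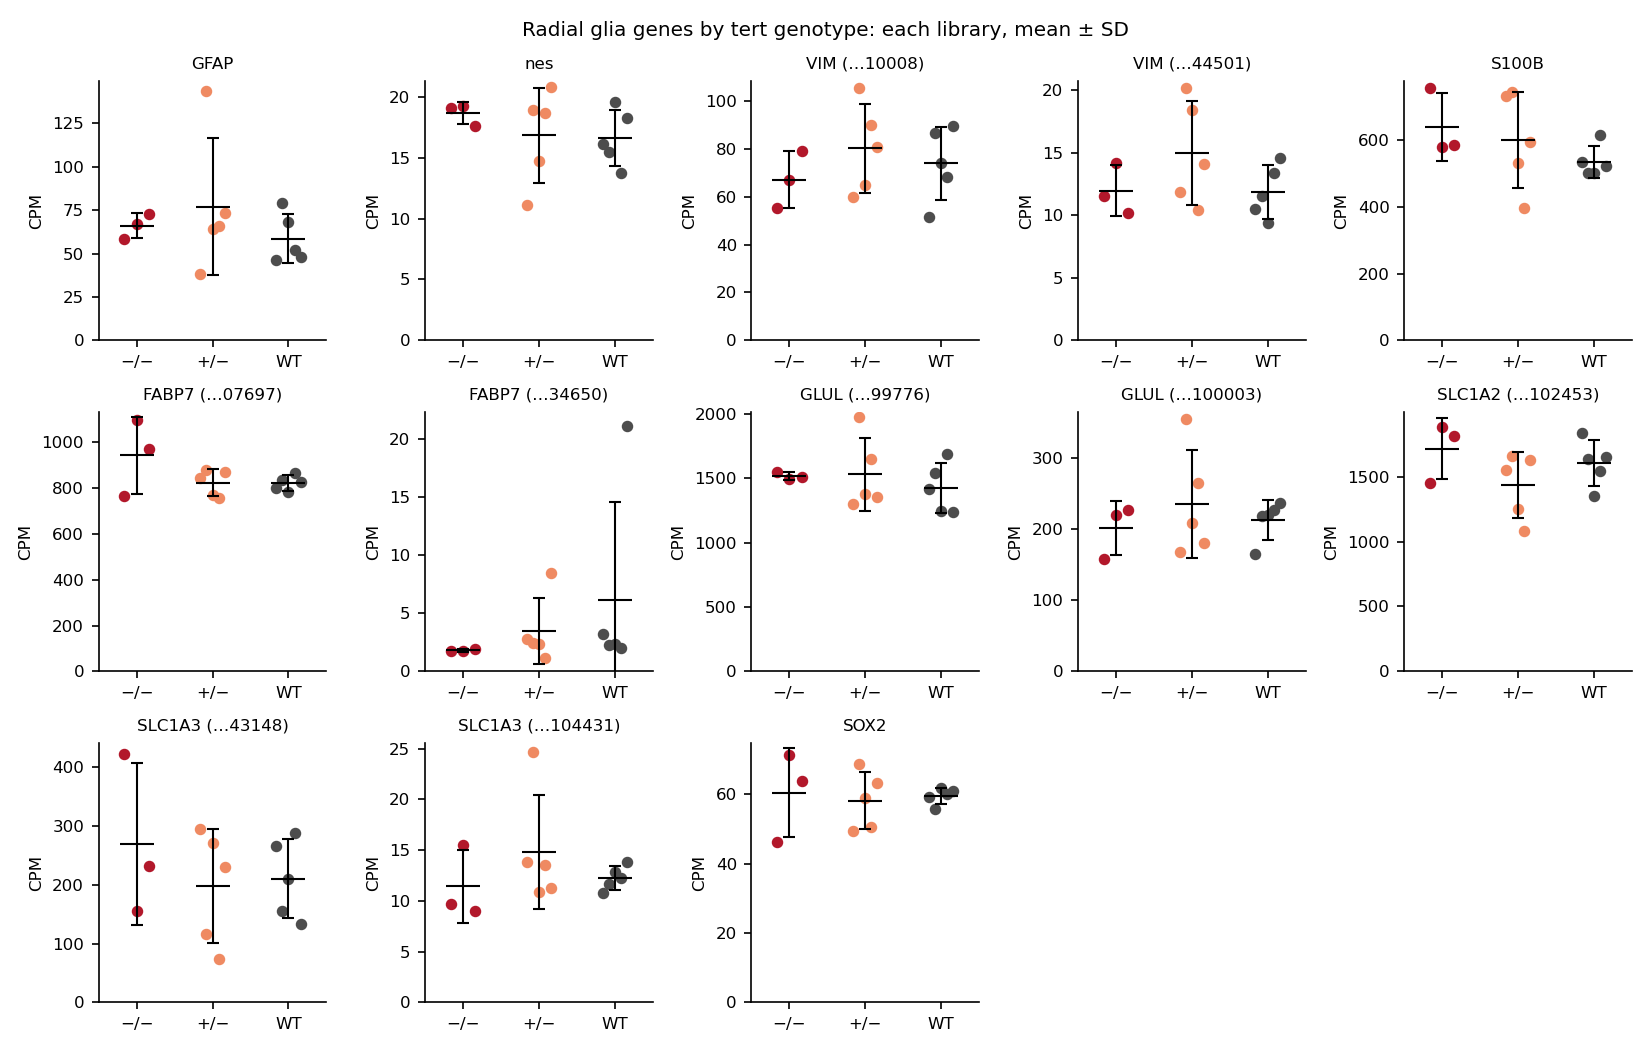
CPM of 13 radial glia genes in each library (points) with the mean and SD of each genotype (black lines), for tert-/- (n = 3), tert+/- (n = 5) and wild type (n = 5), on linear axes that start at 0. Lower ends of bars under 0 are not drawn. The high point of GFAP is tert+/- 2 at 144 CPM, and the high point of FABP7 (ENSDARG00000034650) is wild type 5 at 21.1 CPM.

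The glutamate cycle genes encode the proteins by which astroglia take up glutamate and convert it to glutamine. The main GLUL gene (ENSDARG00000099776) had 1551, 1494 and 1511 CPM in the tert-/- brains, 1303, 1974, 1374, 1652 and 1351 CPM in the tert+/- brains, and 1421, 1541, 1246, 1692 and 1238 CPM in the wild-type brains. The 3 tert-/- fish were nearly equal (CV 1.91%) and sat inside the range of both other genotypes, with a log2 fold change against wild type of 0.089 (95% interval -0.22 to 0.39). The second GLUL gene (ENSDARG00000100003) had 158, 220 and 226 CPM in tert-/-, 168, 354, 209, 265 and 180 CPM in tert+/-, and 165, 218, 219, 227 and 237 CPM in wild type. Here tert+/- 2 was 1.62 times the median of the others, and the lowest values came from tert-/- 1, wild type 1 and tert+/- 1.

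The main SLC1A2 gene (ENSDARG00000102453), which encodes the transporter that removes most synaptic glutamate in mammals, had 1449, 1885 and 1815 CPM in the tert-/- brains, 1553, 1657, 1253, 1083 and 1632 CPM in the tert+/- brains, and 1832, 1633, 1349, 1546 and 1652 CPM in the wild-type brains. tert+/- 4 and tert+/- 3 were the lowest of all fish and tert-/- 2 was the highest. The log2 fold change of tert-/- against tert+/- was 0.26 (SE 0.15, edgeR adjusted p = 0.975), and that of tert+/- against wild type was -0.16 (SE 0.13, adjusted p = 0.766).

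SLC1A3 (ENSDARG00000043148) encodes a second astroglial glutamate transporter. By CV it varied more between fish than any other radial glia gene that passed the filter except the second FABP7 gene. It had 423, 156 and 232 CPM in the tert-/- brains, 295, 117, 272, 74.6 and 231 CPM in the tert+/- brains, and 265, 156, 211, 288 and 133 CPM in the wild-type brains. The highest fish, tert-/- 1, exceeded the lowest, tert+/- 4, by 5.67-fold, and each genotype held both high and low fish. The log2 fold change of tert-/- against wild type was 0.36 (SE 0.43, edgeR adjusted p = 1) and was -0.11 without tert-/- 1. That of tert-/- against tert+/- was 0.45 (SE 0.43, adjusted p = 0.976) and was -0.025 without the same fish. SLC1A3 (ENSDARG00000104431), the less abundant copy, had 9.73, 15.6 and 9.05 CPM in tert-/-, 13.8, 24.7, 10.9, 13.5 and 11.2 CPM in tert+/-, and 10.8, 11.6, 12.9, 12.3 and 13.8 CPM in wild type. Its highest value was again from tert+/- 2, without which the log2 fold change of tert+/- against wild type was 0.010 in place of 0.27.

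The transcription factor gene SOX2, which maintains neural stem cells, had 46.2, 71.2 and 63.8 CPM in the tert-/- brains, 49.4, 68.7, 58.9, 50.4 and 63.1 CPM in the tert+/- brains, and 59.3, 55.6, 61.6, 60.1 and 60.9 CPM in the wild-type brains. Wild-type fish were again close together (CV 3.93%), with mutant fish of both genotypes on either side. The log2 fold changes were 0.021 (95% interval -0.27 to 0.31) in tert-/- against wild type and -0.034 (95% interval -0.29 to 0.22) in tert+/- against wild type. HES1 (ENSDARG00000006514), a Notch target of the family to which her6 belongs, was read beside these genes and not counted as one. The names, many of them human-style, do not tell whether HES1 is her6 itself. HES1 had 46.4, 48.6 and 34.2 CPM in the tert-/- brains, 24.0, 38.7, 40.3, 29.1 and 37.5 CPM in the tert+/- brains, and 29.5, 41.2, 44.8, 34.2 and 35.2 CPM in the wild-type brains. The log2 fold change of tert-/- against tert+/- was 0.35 (SE 0.18, edgeR adjusted p = 0.975), with overlapping values.

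Most radial glia genes had a higher CV between fish than the median of genes of like abundance. The CV over the 13 libraries was 38.3% for GFAP, where the median CV of 2376 genes within 1.5-fold of its level was 10.7%. Without tert+/- 2, left out after its value was seen, it was 20.4%. For SLC1A3 (ENSDARG00000043148) it was 42.5%, against 10.7% for 852 genes, and for GLUL (ENSDARG00000100003) it was 23.4%, against 10.7% for 855 genes. The CV was above such a median for 12 of the 13 genes, but only slightly for SOX2 (12.3% against 10.9%) and nes (16.1% against 14.4%). FABP7 (ENSDARG00000007697) was the exception, with 11.2% on both sides. The other gene lists were not compared in this way, so a high CV may not be particular to these genes. When each fish in turn was left out of the CV of the radial glia genes, between 11 and 13 genes were above the same medians. Those medians came from all 13 libraries and were not recomputed, so the count does not show whether the excess over like genes would remain. The CV of SLC1A3 (ENSDARG00000104431) was 15.7% without tert+/- 2, against 30.1% with it, and that of FABP7 (ENSDARG00000034650) was 69.4% without wild type 5, against 131% with it.

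Certain fish accounted for many of the extremes, as the heat map of libraries shows. tert+/- 2 was the highest fish for 6 of the 13 genes, namely GFAP, both VIM genes, both GLUL genes and SLC1A3 (ENSDARG00000104431), but stood at 0.505 times the median of the others for SLC1A3 (ENSDARG00000043148). tert+/- 4 was the lowest fish for 5 genes, namely both FABP7 genes, S100B, SLC1A2 (ENSDARG00000102453) and SLC1A3 (ENSDARG00000043148), where it stood at 0.323 times the median of the others. tert-/- 2 was the highest for FABP7 (ENSDARG00000007697), SLC1A2 (ENSDARG00000102453) and SOX2, and tert-/- 1 was the highest for S100B and SLC1A3 (ENSDARG00000043148) but the lowest for SOX2 and GLUL (ENSDARG00000100003). The share of all genes with their highest or lowest value in each fish was not counted, so these extremes may not be particular to radial glia genes. In tert+/- 4 the lists of other radial glia, Notch, cell cycle and neurogenesis genes also had their lowest mean centred log2 level. The oligodendrocyte list had its highest there. The summed hindbrain and spinal cord genes were at 119 CPM in tert+/- 2, the highest of all fish, and at 1.19 CPM in tert+/- 4, the lowest. In the other fish low for these genes they were at 2.76 CPM in tert-/- 1, 2.43 CPM in tert-/- 2 and 1.29 CPM in wild type 5. Summed over 8 forebrain genes, tert-/- 1 had 49.2 CPM and tert+/- 1 had 61.1 CPM, against 93.4 to 182 CPM in the other fish. Summed over 5 ependymal genes, the same fish had 8.86 and 12.9 CPM, against 13.5 to 21.9 CPM in the others. tert+/- 1 was the lowest fish for GFAP and nes. The part of these 3 lists in the extremes of the radial glia genes was not tested.

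**Figure D4:**
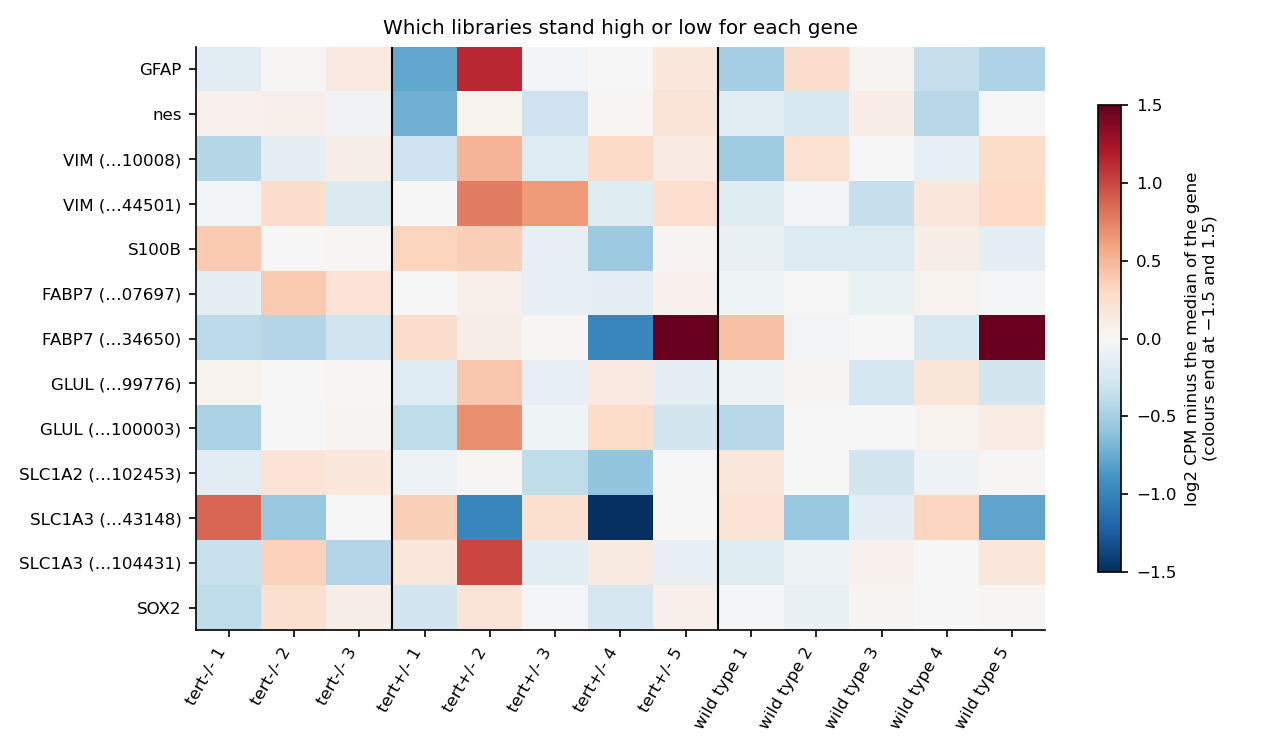
Heat map of log2 CPM minus the median of each gene for 13 radial glia genes (rows) in 13 libraries (columns, tert-/- left of tert+/- left of wild type, divided by black lines). Red is above and blue below the median, and colours end at 1.5 in either direction. tert+/- 2 is red for 6 genes of which it is the highest fish, and tert+/- 4 is blue for 5 genes of which it is the lowest.

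To see whether the genes were high in the same fish, log2 CPM was correlated for all 78 pairs of the 13 genes over the 13 libraries, with permutation p-values adjusted over the pairs. The radial glia genes did not move as 1 block: r was above 0 in 57 pairs and below 0 in 21, with a median of 0.20. One pair passed by r and by rho, GLUL (ENSDARG00000100003) with VIM (ENSDARG00000010008), at Pearson r = 0.84 (permutation p = 0.00025, adjusted p = 0.0195) and Spearman rho = 0.81 (permutation p = 0.00124, adjusted p = 0.0484). Its r was 0.73 without tert-/- 1 and tert+/- 2, the 2 fish farthest from the median of GLUL, and 0.83 with each genotype centred on its mean (adjusted p = 0.0312). It no longer passed without wild type 1, wild type 5 and tert+/- 3 (r = 0.83, adjusted p = 0.117) or without tert+/- 1 and tert-/- 1 (r = 0.78, adjusted p = 0.199). The number of pairs that passed by r was 0 without tert-/- 1, tert+/- 1 or tert+/- 2 and reached 3 without tert+/- 4 or wild type 1.

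SLC1A3 (ENSDARG00000043148) ran the other way from the 2 genes of this pair, but not from every gene. Its Pearson r with VIM (ENSDARG00000010008) was -0.79 (permutation p = 0.00138, adjusted p = 0.0538) and its Spearman rho was -0.82 (permutation p = 0.00071, adjusted p = 0.0484), so that the pair passed by rho and not by r. Its r with GLUL (ENSDARG00000100003) was -0.76 (permutation p = 0.00242, adjusted p = 0.0629) and its rho was -0.74 (permutation p = 0.00503, adjusted p = 0.0922), which did not pass. The r with VIM was -0.74 without tert+/- 2 and tert+/- 4, the 2 fish farthest from the median of SLC1A3. The r with GLUL was -0.70 without tert-/- 1 and tert+/- 2, the 2 fish farthest from the median of GLUL. With S100B, SLC1A3 (ENSDARG00000043148) had a positive r of 0.57 (permutation p = 0.0434, adjusted p = 0.282), which did not pass. That r was 0.013 without tert-/- 1 and tert+/- 4. The 2 SLC1A3 genes had an r of -0.58 with each other (permutation p = 0.0398, adjusted p = 0.282; rho -0.55, permutation p = 0.0529, adjusted p = 0.453), which did not pass either. FABP7 (ENSDARG00000007697) and SLC1A2 (ENSDARG00000102453), which were both highest in tert-/- 2 and lowest in tert+/- 4, had an r of 0.72 (permutation p = 0.00822, adjusted p = 0.108) and a rho of 0.74 (permutation p = 0.00591, adjusted p = 0.0922). GFAP and GLUL (ENSDARG00000100003) had an r of 0.71 (permutation p = 0.00967, adjusted p = 0.108) but a rho of 0.35, and r was 0.21 without tert+/- 1 and tert+/- 2, so that this relation rested on those fish.

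**Figure D5:**
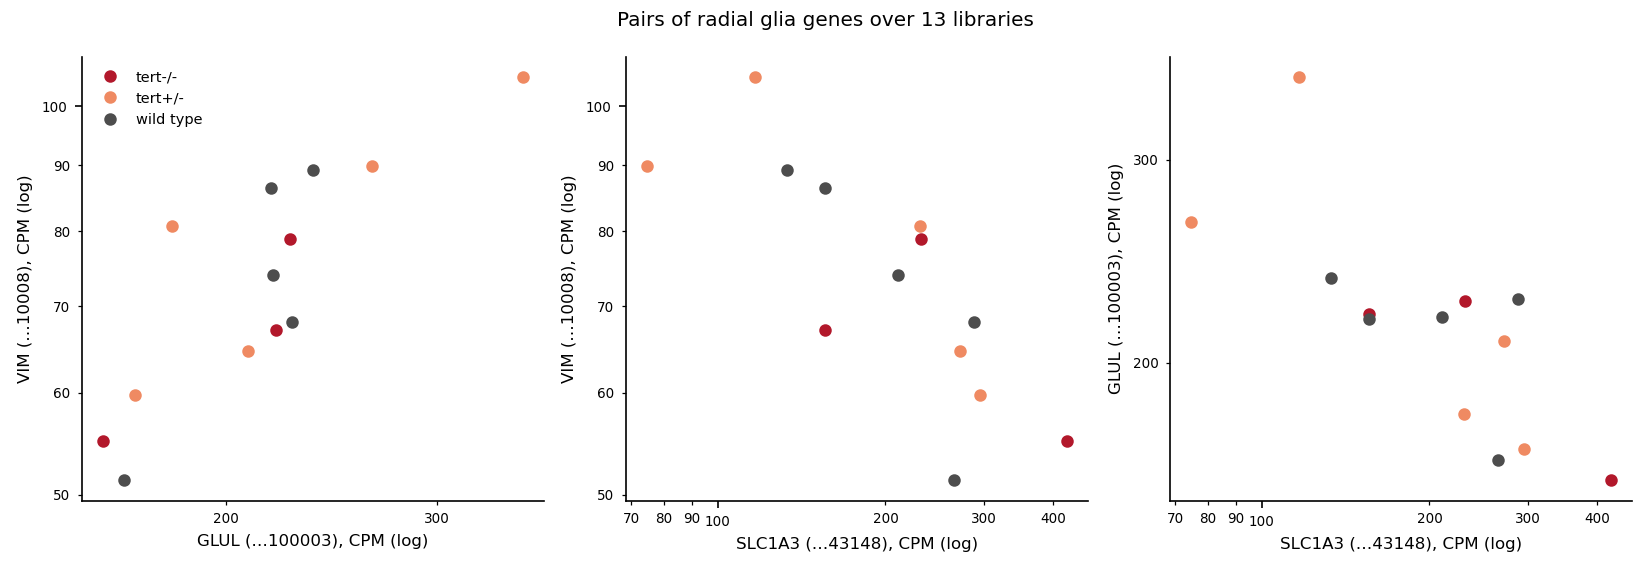
CPM of 3 pairs of radial glia genes in 13 libraries, on log axes, with 1 point for each fish coloured by genotype. VIM (ENSDARG00000010008) is higher where GLUL (ENSDARG00000100003) is higher (r = 0.84) and lower where SLC1A3 (ENSDARG00000043148) is higher (r = -0.79), and fish of all 3 genotypes are spread along each relation.

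By Spearman rho with the mean centred level of the 13 genes over the 13 libraries, the non-member genes most like them were ihha (rho 0.94, mean 0.455 CPM), ZMYND10 (rho 0.89, mean 0.794 CPM), zgc:162780 (rho 0.87, mean 9.71 CPM), SULF1 (rho 0.86, mean 8.15 CPM) and EYA1 (rho 0.86, mean 7.81 CPM). These are given as a description, with no test, and all were of low abundance beside most radial glia genes. The mean centred level is pulled most by genes that vary most, and FABP7 (ENSDARG00000034650) had the highest CV of the 13 genes, at 131%. In wild type 5 that gene stood at 9.12 times the median of the other fish, and the mean centred level was 0.19. The part of this gene in the likeness was not tested.

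A further list held other genes of radial glia and astroglia. Of its 30 genes 29 were tested and 0 were called by edgeR or by DESeq2 in any comparison. In tert-/- against wild type 17 were higher and 12 lower, in tert+/- against wild type 8 were higher and 21 lower, and in tert-/- against tert+/- 22 were higher and 7 lower, with median log2 fold changes of 0.038, -0.17 and 0.17. The unadjusted p was under 0.05 for 1, 4 and 5 of them, against 2.14%, 7.74% and 4.62% of all genes. Over all genes, 10072, 9911 and 9917 of 20064 were higher in the 3 comparisons. The same shares over all genes stand beside the lists that follow. Without tert+/- 4, in which the mean centred log2 level of the list was lowest, 12 of the listed genes were higher and 17 lower in tert+/- against wild type (median -0.051). In tert-/- against tert+/-, 20 of them were then higher and 9 lower (median 0.16). SLC6A11, a GABA transporter of astroglia, averaged 162 ± 14.3 CPM in tert-/-, 130 ± 32 CPM in tert+/- and 179 ± 21.1 CPM in wild type, and its log2 fold change of tert+/- against wild type was -0.47 (SE 0.15, edgeR adjusted p = 0.602). bcan, which encodes the matrix protein brevican, averaged 241 ± 47.2 CPM in tert-/-, 168 ± 34.7 CPM in tert+/- and 208 ± 32.1 CPM in wild type, with a log2 fold change of tert-/- against tert+/- of 0.52 (SE 0.17, adjusted p = 0.975). S1PR1, a receptor for sphingosine-1-phosphate, averaged 145 ± 13.3 CPM in tert-/-, 115 ± 15 CPM in tert+/- and 121 ± 9.46 CPM in wild type. AQP4, the water channel of mammalian astrocytes, was at or near 0 in every brain, with a highest value of 0.234 CPM. GJA1, a gap junction gene of astroglia, was abundant in all brains, at 811 ± 90.4 CPM in tert-/-, 737 ± 169 CPM in tert+/- and 735 ± 94.6 CPM in wild type.

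Notch signalling holds radial glia in a resting state. A list of its ligands, receptors, targets and other pathway genes, such as RBPJ, MIB1 and NUMB, had 34 genes. All were tested, with 0 called by edgeR or DESeq2. In tert-/- against wild type 22 were higher and 12 lower (median log2 fold change 0.014), and in tert+/- against wild type 11 were higher and 23 lower (median -0.066). In tert-/- against tert+/- 32 were higher and 2 lower (median 0.15), where over all genes 9917 of 20064 were higher. Without tert+/- 4, in which the list had its lowest sum of 634 CPM, 26 were higher and 8 lower (median 0.094), and without tert-/- 2 the split was 20 against 14 (median 0.080). The unadjusted p was under 0.05 for 0, 2 and 3 of the Notch genes in the 3 comparisons. NOTCH3, a receptor of quiescent radial glia, averaged 60.5 ± 1.97 CPM in tert-/-, 42.1 ± 13.5 CPM in tert+/- and 60.2 ± 4.69 CPM in wild type. Its log2 fold change was -0.51 (SE 0.17, edgeR adjusted p = 0.602) in tert+/- against wild type and 0.52 (SE 0.20, adjusted p = 0.975) in tert-/- against tert+/-. The ligand gene jag1b averaged 6.83 ± 0.336 CPM in tert-/-, 5.38 ± 0.839 CPM in tert+/- and 6.55 ± 0.688 CPM in wild type, and the target gene HEY1 averaged 22.7 ± 3.44, 19.1 ± 1.68 and 19.8 ± 1.29 CPM in the same order. The list of endothelial genes, which mark blood vessels, had 6 genes, all tested and 0 called by edgeR or DESeq2. They were higher for 5 and lower for 1 in tert-/- against tert+/- (median 0.25), and higher for 1 and lower for 5 in tert+/- against wild type (median -0.16), with 1 unadjusted p under 0.05 in each. That gene was TIE1, a receptor of vessels, at 9.53 ± 1.03 CPM in tert-/-, 6.16 ± 1.94 CPM in tert+/- and 9.40 ± 2.38 CPM in wild type, with a log2 fold change of 0.63 (SE 0.27, edgeR adjusted p = 0.975) in tert-/- against tert+/-. The summed list ran between 109 and 132 CPM in tert-/-, between 77.0 and 145 CPM in tert+/-, and between 96.3 and 123 CPM in wild type. Its part in the split of the Notch genes was not tested.

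Cell cycle genes, which mark dividing progenitors, gave 16 tested genes, of which 0 were called by edgeR or DESeq2 and 0 had an unadjusted p under 0.05. They were higher for 12 and lower for 4 in tert-/- against wild type, higher for 3 and lower for 13 in tert+/- against wild type, and higher for 14 and lower for 2 in tert-/- against tert+/-. Without tert+/- 4, where their sum was 166 CPM and the lowest of all fish, 17 genes were tested and the last 2 splits were 8 against 9 and 12 against 5. Without wild type 1, wild type 5 and tert+/- 3, the split in tert+/- against wild type was 13 higher and 3 lower, with a median of 0.23 in place of -0.22. Without tert-/- 3, 2 were higher and 15 lower in tert-/- against wild type, and 9 were higher and 8 lower in tert-/- against tert+/-. TOP2A, a topoisomerase of dividing cells, averaged 28.2 ± 13.3 CPM in tert-/-, 18.5 ± 10.9 CPM in tert+/- and 23.7 ± 6.32 CPM in wild type, with ranges that overlapped. Of 21 tested genes of neurogenesis, 7 were higher and 14 lower in tert-/- against wild type, 7 higher and 14 lower in tert+/- against wild type, and 10 higher and 11 lower in tert-/- against tert+/-. None was called by edgeR or DESeq2, and the unadjusted p was under 0.05 for 0, 2 and 1 of them. Without tert+/- 4, 12 were higher and 9 lower in tert+/- against wild type (median 0.012 in place of -0.089), and 6 were higher and 15 lower in tert-/- against tert+/- (median -0.063). Without wild type 1, 11 were higher and 10 lower in tert+/- against wild type, and without tert+/- 1 and tert-/- 1 the split in tert-/- against tert+/- was 14 against 7. ascl1a, a proneural factor, averaged 8.83 ± 0.993 CPM in tert-/-, 9.26 ± 1.14 CPM in tert+/- and 10.3 ± 1.55 CPM in wild type. Genes of the glial response to injury (14 tested) were higher for 10 and lower for 4 in tert-/- against wild type, and those of glutamate and glutamine handling other than the genes above (13 tested) were higher for 5 and lower for 8. In tert+/- against wild type the splits were 8 against 6 for the injury genes and 4 against 9 for the glutamate genes, and in tert-/- against tert+/- they were 8 against 6 and 7 against 6. Leaving out single fish turned the majority of either list in both of these comparisons. By edgeR and DESeq2 0 genes of either list were called in any comparison, and by edgeR the unadjusted p was under 0.05 for 0 glutamate genes in all 3 comparisons and for 0, 1 and 1 injury genes. These were MMP9, a matrix protease, with a log2 fold change of 0.45 (SE 0.17, edgeR adjusted p = 0.602) in tert+/- against wild type, and CXCR5, a chemokine receptor, with -0.73 (SE 0.25, adjusted p = 0.975) in tert-/- against tert+/-. Markers of oligodendrocytes, the cells that make myelin, summed to between 19169 and 20285 CPM in tert-/-, between 18428 and 24664 CPM in tert+/-, and between 11929 and 25058 CPM in wild type, and neuronal markers to between 9327 and 10307, between 9310 and 11097, and between 8897 and 9809 CPM in the same order, so that the ranges of the genotypes overlapped for both lists.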

How the data were processed

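Per the labels, total brain RNA was made into libraries with the TruSeq RNA version 2 kit, and the authors produced reads with bcl2fastq 1.8.4, mapped them with STAR 2.4.1d to the assembly GRCz10, and obtained read counts for Ensembl genes from featureCounts 1.4.6-p4. The annotation release, strand setting and handling of reads that match several genes are not given in the sources used here, so reads could be split between near-identical copies of a gene. The deposited counts are raw. In the deposited RPKM, the authors divided by library totals that were repeated down the table in place of each library's own total. With its own total, 8.18% of 195709 values gave a gene length within 0.2% of the median of that gene, and with repeated totals 100% did. RPKM was therefore used only to recover gene lengths.

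Symbols were available for 26269 of 32105 identifiers (81.8%). Genes were tested with edgeR 4.0.16 in R 4.3.3 (TMM factors, filterByExpr with a minimum count of 10, 2-sided quasi-likelihood F test, Benjamini-Hochberg adjustment over all genes, called under 0.05). SEs and 95% intervals came from the same fit. log2 CPM had a prior count of 2. Correlations used 100000 permutations, 2-sided. Alternatives were RLE factors, DESeq2 1.42.0, no count filter, only the 2 genotypes compared, and fits without each library in turn or without libraries that stood apart. CVs and list splits without single fish were added after the data were seen. The scripts were tested on simulated data. Replicate numbers follow the order of the records. Members and gene lists were chosen with earlier results of these data known. Named genes were all members, tert, up to 3 genes of each list by lowest p, and 5 genes by likeness to the members. GJA1, AQP4 and HES1 were named after their values were seen. No protein or promoter sequences were used here.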

Additional observations from a re-analysis of the deposited data

Results flagged for a closer look

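The values of a radial glia gene were examined in 26 groups of 5 fish. In 5 of these groups, 1 fish stood apart from its nearest other fish by a large share of the range of the group. That share was above the 95% critical value of Dixon's test for groups of that size. For normal values and independent groups, chance alone marks about 1 in 20 groups. The groups here share fish, and the share marked over all genes was not counted. FABP7 (ENSDARG00000034650) was at 8.43 CPM in tert+/- 5 and at 21.1 CPM in wild type 5, each far above the rest of its genotype. SLC1A3 (ENSDARG00000104431) was at 24.7 CPM in tert+/- 2, above the rest of its genotype. S100B was at 616 CPM in wild type 4, above the other wild-type fish, and GLUL (ENSDARG00000100003) was at 165 CPM in wild type 1, below them. The groups of 3 tert-/- fish were too small for this check.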

How the results depend on the processing

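No radial glia gene was called by edgeR or DESeq2 under any alternative. DESeq2 gave no adjusted p for FABP7 (ENSDARG00000034650) in either mutant genotype against wild type. The number of all genes called was 16, 30 and 20 with DESeq2 for tert-/- against wild type, tert+/- against wild type and tert-/- against tert+/-, against 0 with edgeR, and 0, 2 and 1 in edgeR without wild type 1, wild type 5 and tert+/- 3. Over fits that left out 1 fish it ran between 0 and 1, 0 and 5, and 0 and 1. tert, at a log2 fold change of 1.66 in tert-/- against wild type (edgeR adjusted p = 0.573), was called with DESeq2 at 1.67 (adjusted p = 0.00629). Directions of small differences depended on single fish. Leaving out 1 fish, tert-/- against wild type ran between -0.16 and 0.080 for GLUL (ENSDARG00000100003), -0.11 and 0.65 for SLC1A3 (ENSDARG00000043148), -0.38 and 0.051 for SLC1A3 (ENSDARG00000104431), -0.11 and 0.20 for SOX2, and -0.12 and 0.13 for VIM (ENSDARG00000044501). tert+/- against wild type ran between -0.021 and 0.033 for FABP7 (ENSDARG00000007697), -1.47 and 0.50 for FABP7 (ENSDARG00000034650), -0.0074 and 0.17 for GLUL (ENSDARG00000099776), -0.052 and 0.24 for GLUL (ENSDARG00000100003), -0.28 and 0.12 for SLC1A3 (ENSDARG00000043148), -0.10 and 0.019 for SOX2, -0.069 and 0.14 for nes, and -0.00087 and 0.21 for VIM (ENSDARG00000010008). tert-/- against tert+/- ran between -0.39 and 0.13 for GFAP, -0.034 and 0.18 for S100B, -0.065 and 0.096 for GLUL (ENSDARG00000099776), -0.025 and 0.73 for SLC1A3 (ENSDARG00000043148), and -0.078 and 0.23 for SOX2. Without wild type 1, wild type 5 and tert+/- 3, GFAP in tert-/- against wild type was -0.00096 and FABP7 (ENSDARG00000034650) in tert+/- against wild type was 0.76. Without tert+/- 1 and tert-/- 1, tert-/- against wild type was 0.076 for GLUL (ENSDARG00000100003), -0.11 for SLC1A3 (ENSDARG00000043148) and 0.017 for SLC1A3 (ENSDARG00000104431), and tert+/- against wild type was 0.025 for SOX2. The number of pairs that passed by r was 3 with RLE factors, 0 without either of these sets of fish, and between 0 and 3 when leaving out 1 fish. These sets hold fewer fish, and other causes were not tested. No paired analysis was possible because the replicate numbers only follow the order of the records and pair no fish. The depth left SLC1A2 (ENSDARG00000052138) untested, and 3 tert-/- fish limit every comparison with that genotype.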
